A study of Arabidopsis thaliana with 6 samples.

Results

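BSMT1 and AT3G25810 stand for separate branches of floral scent. BSMT1 makes benzenoid volatiles and AT3G25810 belongs to the terpene synthases. The pair was taken from the probe sets annotated to these gene names, and 1 probe set was found for each, so 2 of the 22746 probe sets that are not array controls are described (BSMT1 has the locus number AT3G11480). They were selected on the difference of these same signals between pop2-1 and wild-type flowers, large for BSMT1 and small for AT3G25810. Their values in that comparison are therefore given as a description, with no test.

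The arrays were hybridised with RNA of pollinated whole flowers of Arabidopsis thaliana at stage 14 to 15. The 3 arrays of the mutant came from plants homozygous for pop2-1 in the Ler accession, and the 3 arrays of the wild type came from Ler plants. POP2 encodes the transaminase that degrades the amino acid γ-aminobutyric acid (GABA), and per the series' description the mutant flowers contain much GABA. The labels call the arrays of a group biological replicates and do not say how many plants or flowers went into each. In whole flowers, a change in the number of cells that express a gene and a change in RNA per cell cannot be told apart.

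The benzenoid volatiles made by BSMT1 derive from phenylalanine or chorismate by way of benzoic and salicylic acid. BSMT1 transfers a methyl group from S-adenosylmethionine to the carboxyl group of these acids, which turns them into the volatile esters methyl benzoate and methyl salicylate. It belongs to the SABATH family of methyltransferases, as does JMT, which methylates jasmonic acid. Terpene synthases convert prenyl diphosphates, supplied by the plastid MEP pathway and the cytosolic mevalonate pathway, into terpenes, which make up much of the scent of Arabidopsis flowers.

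BSMT1 was several times higher in the mutant on all arrays. Its MAS5 signal, a linear hybridisation intensity scaled per array by the authors, was 565, 635 and 681 on the arrays of pop2-1 replicates 1, 2 and 3, against 154, 185 and 133 on those of wild-type replicates 1, 2 and 3. The groups did not overlap, and the lowest pop2-1 signal was 3.05 times the highest wild-type signal. Such a separation in the same direction was found for 9.88% of all tested probe sets, and since BSMT1 was chosen for its difference nothing follows from its being one of them.

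BSMT1 averaged 627 ± 58.3 in pop2-1 flowers, against 157 ± 26.4 in wild-type flowers (SD over 3 arrays each). On the log2(signal + 16) scale, where 16 is a pseudocount that damps dim values, the difference was 1.90 ± 0.15 (limma SE), or 3.73-fold. The wild-type signals lay close to 130, the mean signal above which probe sets were tested, so the size of the fold depends on the pseudocount. It was 1.65 on the log2 scale with a pseudocount of 64. Of the 13647 tested probe sets, 3 had a log2 difference at or above that of BSMT1, itself included (0.022%). BSMT1 was chosen for its difference, so nothing follows from this share. Another of the 3 was AT2G25510, named here after its values were seen, with a log2 difference of 2.25 ± 0.58 (limma adjusted p = 0.166).

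AT3G25810 gave strong signals in both genotypes, and the groups overlapped. Its signal was 1706, 2560.0 and 2845 on the arrays of pop2-1 replicates 1, 2 and 3, against 1651, 1819 and 1936 on those of wild-type replicates 1, 2 and 3. The mutant arrays of replicates 2 and 3 lay above all wild-type arrays, while that of replicate 1 lay within the wild-type range. AT3G25810 averaged 2370 ± 593 in pop2-1 flowers, against 1802 ± 143 in wild-type flowers (SD over 3 arrays each), a log2 difference of 0.36 ± 0.18 or 1.29-fold. A log2 difference at least as high was found for 1020 of the tested probe sets (7.47%).

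**Figure D1:**
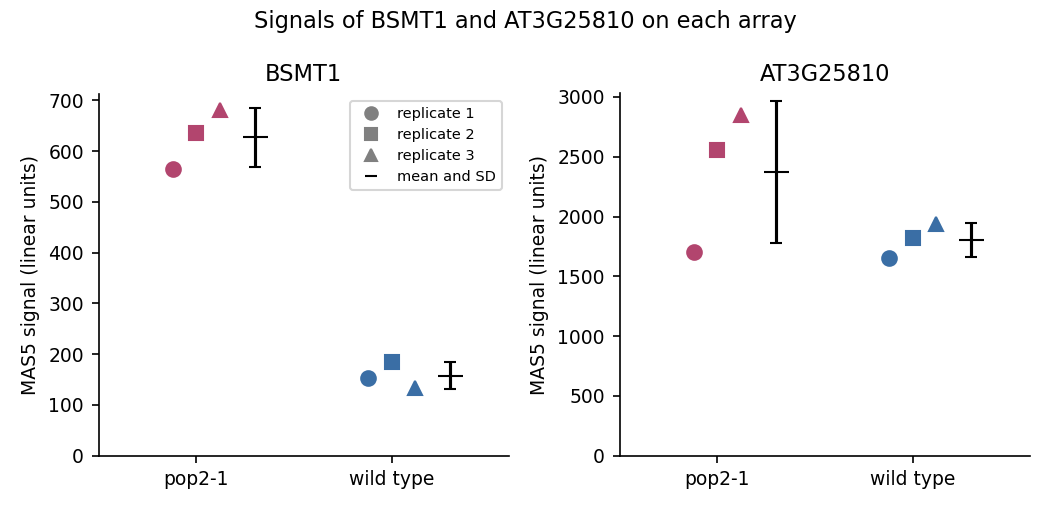
MAS5 signal (linear axis from 0) of BSMT1 on the left and AT3G25810 on the right, for pop2-1 and wild-type arrays, with marker shapes for the replicate number and a bar for mean and SD (n = 3 per group). The pop2-1 arrays of BSMT1 sit between 565 and 681 and the wild-type arrays between 133 and 185, while for AT3G25810 pop2-1 replicate 1 (1706) lies among the wild-type arrays.

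The spread within groups differed between the genes. The coefficient of variation of BSMT1 was 9.29% among pop2-1 arrays and 16.8% among wild-type arrays. For AT3G25810 it was 25.0% among pop2-1 arrays and 7.95% among wild-type arrays. The highest pop2-1 signal was 1.67 times the lowest for AT3G25810 and 1.20 times the lowest for BSMT1. In both genes the pop2-1 array of replicate 1 was the lowest of its group and that of replicate 3 the highest. Among wild-type arrays the genes did not share an order, with BSMT1 highest in replicate 2 and AT3G25810 highest in replicate 3.

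Arrays of the same replicate number were set against each other as well. Over all tested probe sets, arrays that share a number tended weakly to lie on the same side of their group means (correlations of 0.172 to 0.418). BSMT1 departed from this in replicate 3, at 0.12 from the group mean in pop2-1 and -0.21 in wild type (log2 units). For BSMT1 the log2 difference was 1.78, 1.69 and 2.23 for replicate numbers 1, 2 and 3. For AT3G25810 it was 0.05, 0.49 and 0.55. AT3G25810 was thus higher in pop2-1 for every number, and for replicate number 1 by a signal ratio of 1.03. Without pop2-1 replicate 1 its log2 difference was 0.58 in place of 0.36, and without pop2-1 replicate 3 it was 0.22. That of BSMT1 lay between 1.79 and 2.01 whichever array was left out.

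The difference of BSMT1 exceeded that of AT3G25810 by 1.54 on the log2 scale, which is 2.90-fold. By replicate number the excess was 1.73, 1.20 and 1.68. To show the balance of the pair on each array, the log2 value of AT3G25810 was subtracted from that of BSMT1 and the result was set to average 0 over the wild-type arrays. It was 1.83, 1.42 and 1.36 on the arrays of pop2-1 replicates 1, 2 and 3, and 0.10, 0.21 and -0.31 on those of wild-type replicates 1, 2 and 3. The SD was 0.26 among pop2-1 arrays and 0.28 among wild-type arrays. The pop2-1 array with the largest balance, replicate 1, was the one with the lowest AT3G25810 signal. The pair was chosen for this contrast, so the excess was not tested.

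**Figure D2:**
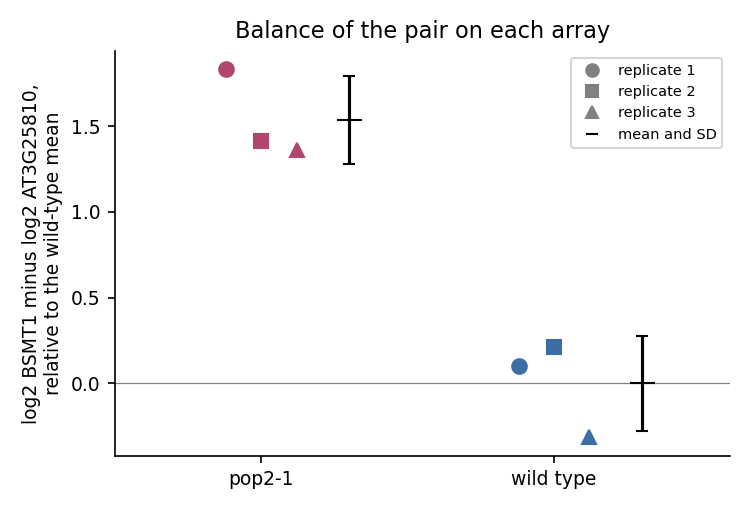
Log2(signal + 16) of BSMT1 minus that of AT3G25810 on each array, relative to the mean of the wild-type arrays (vertical axis, log2 units), for pop2-1 and wild type, with mean and SD (n = 3 per group). The pop2-1 arrays lie between 1.36 and 1.83 and the wild-type arrays between -0.31 and 0.21.

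Facts of the arrays bear on these values. The 2% trimmed mean was 500.04 on each array, so all signals are relative to the average probe set. Any pair of pop2-1 arrays had a Spearman correlation of 0.928 to 0.960, against 0.979 to 0.982 for any pair of wild-type arrays, computed over genes, which are not independent of each other. One array, that of pop2-1 replicate 2, was unlike the rest in the ratio of 3' to 5' control signals, which rises where RNA is partly degraded. The actin ratio was 9.73 there, against 1.72 to 2.93 on the other 5 arrays. The GAPDH ratio was 1.73 there, against 0.895 to 1.04 on the other 5 arrays. Neither gene had its highest or lowest pop2-1 signal on that array. Without it the log2 difference was 1.89 for BSMT1 and 0.29 for AT3G25810. The POP2 transcript was not analysed here, so the genotype labels were not checked against it.

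The other genes of the scent pathways came from 8 lists of 124 genes in all, BSMT1 and AT3G25810 apart. Of these 40 had a probe set annotated to 1 gene, and 9 were bright enough to test. In limma 0 of the 9 rose and 0 fell, where 0.462% of all tested probe sets changed (adjusted p under 0.05 over 13647 probe sets). At an unadjusted p under 0.05 there were 2, MYC3 and AT5G44630, where 11.9% of all tested probe sets passed. The median log2 difference of the 9 was 0.14, against 0.03 over all tested probe sets, and 5 of the 9 lay above 0, as did 55.4% of all tested probe sets. The pathways were thus covered in small part, and 0 of the 12 genes of the plastid MEP pathway and prenyl diphosphate list had an annotated probe set.

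**Figure D3:**
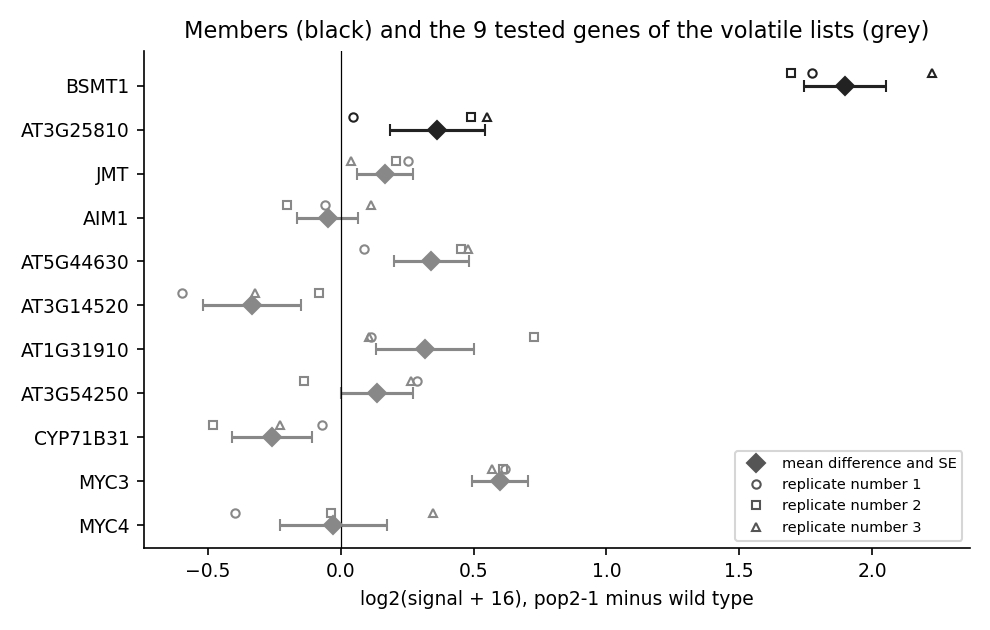
Difference of pop2-1 minus wild type on the log2(signal + 16) scale (horizontal axis) for BSMT1 and AT3G25810 in black and the 9 tested genes of the volatile lists in grey; diamonds with bars are the mean difference and limma SE, open markers the difference for each replicate number. BSMT1 lies at 1.90, MYC3 at 0.60 with its 3 replicate numbers close together, and AT3G25810 and AT5G44630 lie at 0.36 and 0.34.

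Among the methyltransferases on the SABATH list, JMT was the 1 gene bright enough to test. Its signal was 2147, 2347 and 2076 in pop2-1 replicates 1, 2 and 3, against 1801, 2030 and 2022 in wild type. The groups did not overlap, but the gap between 2076 and 2030 was small beside the spread. The log2 difference was 0.17 ± 0.10 (limma adjusted p = 0.553), so JMT did not pass. BSMT1, of the same family, differed by 1.90 but was chosen for its difference, so nothing follows from the contrast with JMT.

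The other 14 SABATH genes with an annotated probe set were too dim to test, with mean signals of 9.31 to 69.7. Without detection calls such signals are not known to lie above background. Groups did not overlap in 2 of the 14, against 12.5% of all probe sets too dim to test. AT5G04380 had signals of 5.69, 4.31 and 18.2 in pop2-1 and 49.7, 36.3 and 37.5 in wild type. AT5G66430 had 20.2, 27.8 and 45.4 in pop2-1 and 3.92, 17.5 and 3.57 in wild type. With no filter on dim probe sets neither passed (limma adjusted p = 0.201 for AT5G04380 and 0.367 for AT5G66430). NAMT1, whose product methylates nicotinic acid, had signals of 2.86, 4.14 and 19.1 in pop2-1 and 26.0, 1.07 and 2.75 in wild type, with overlapping groups.

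Of the genes that supply or turn over benzoic and salicylic acid, 2 of 23 had an annotated probe set. AIM1, an enzyme of peroxisomal β-oxidation, by which the side chain of cinnamic acid is shortened to benzoic acid, had signals of 4985, 3963 and 4931 in pop2-1 and 5198, 4564 and 4557 in wild type. The groups overlapped, and the log2 difference was -0.05 ± 0.12 (limma adjusted p = 0.884). UGT74F1, which glucosylates salicylic acid, was too dim, with signals between 6.74 and 18.3 in pop2-1, against 4.22 to 14.6 in wild type. Phenylalanine ammonia-lyases and the isochorismate synthases were not analysed here.

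Of 17 further genes of the terpene synthase list with a probe set, 2 were bright enough to test. AT5G44630 had signals of 4854, 7144 and 6312 in pop2-1 replicates 1, 2 and 3, against 4563, 5219 and 4525 in wild type. As for AT3G25810, the pop2-1 array of replicate 1 lay within the wild-type range and the other pop2-1 arrays lay above it. The log2 difference was 0.34 ± 0.14 (limma adjusted p = 0.392). By replicate number it was 0.09, 0.45 and 0.48, close to the 0.05, 0.49 and 0.55 of AT3G25810. Without pop2-1 replicate 1 the log2 difference of AT5G44630 was 0.50 and it passed (limma adjusted p = 0.0385). That fit lacked the array on which its pop2-1 signal was lowest, and 3.86% of all tested probe sets changed in it. Without pop2-1 replicate 2, the array with its highest signal and the high actin ratio, the difference was 0.22 (limma adjusted p = 0.563). Over the 14 alternatives the limma adjusted p of AT5G44630 ranged from 0.0385 to 0.831.

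AT3G14520, the other tested gene of the list, had its higher signals in wild type. They were 112, 148 and 150.1 in pop2-1 and 178, 158 and 192 in wild type. The groups did not overlap, and the log2 difference was -0.33 ± 0.19 (limma adjusted p = 0.512). Both tested genes of the terpene synthase list thus missed the threshold, with opposite signs.

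The remaining 15 terpene synthase genes had mean signals of 2.56 to 59.7. In 1 of them, AT1G48800, the groups did not overlap, against 12.5% of all probe sets too dim to test. Its signals were 2.89, 7.64 and 2.34 in pop2-1 and 1.13, 1.92 and 1.08 in wild type, near the low end of the scale. TPS-CIN, a synthase of cineole known from roots, lies in the reference gene order next but one to AT3G25810, and a copy of the same name lies between them. The probe set annotated to the farther copy, AT3G25830, had signals of 3.56, 4.10 and 1.95 in pop2-1 and 3.66, 0.37 and 1.70 in wild type, all near the low end of the scale, and it may not separate the copies. On the other side of AT3G25810, AT3G25805 had signals between 349 and 361 in pop2-1, against 319 to 450.3 in wild type (log2 -0.15, limma adjusted p = 0.723). Beside BSMT1, AT3G11490 had signals between 232 and 337 in pop2-1, against 220.0 to 278 in wild type (log2 0.20, limma adjusted p = 0.666).

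**Figure D4:**
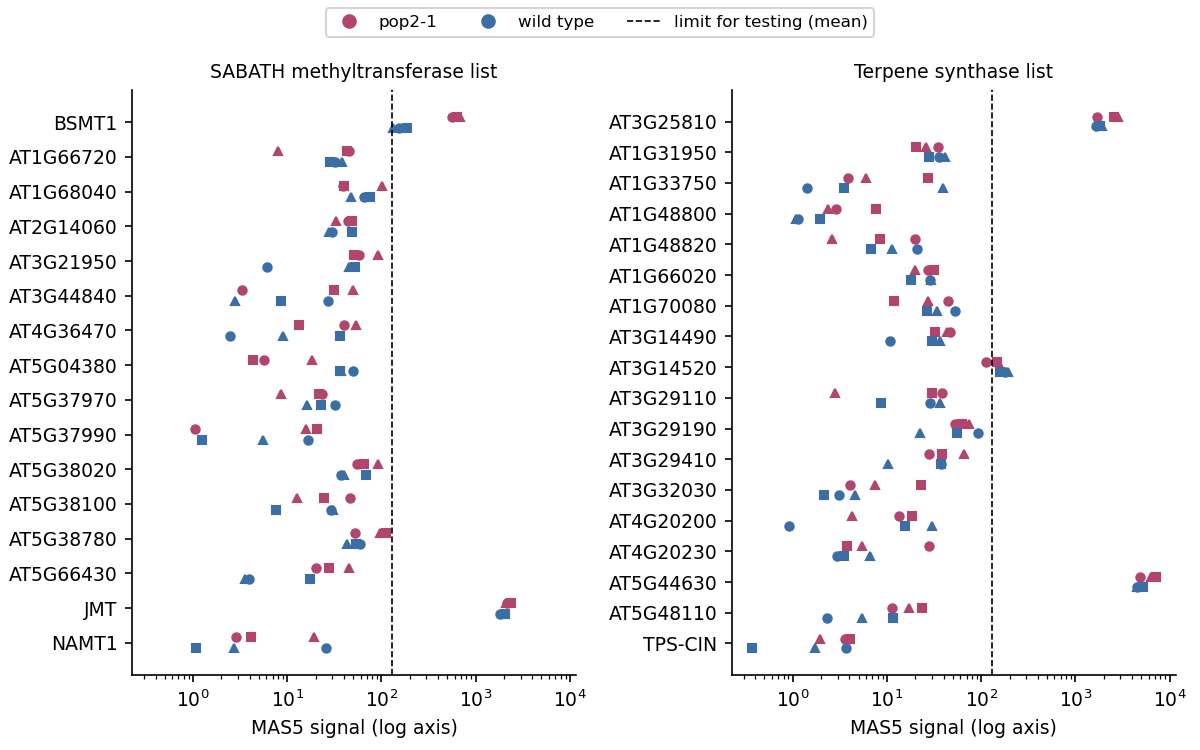
MAS5 signal on a log axis of each array for the genes of the SABATH list (left) and of the terpene synthase list (right), with BSMT1 and AT3G25810 in the top row, other genes in order of name, pop2-1 above wild type in each row, and a dashed line at a signal of 130, the mean above which probe sets were tested. On each side most genes lie left of the line; levels of different probe sets are not comparable.

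The lists upstream and downstream of the terpene synthases gave 3 tested genes. On the mevalonate list, AT1G31910 had signals of 902, 1524 and 985 in pop2-1 and 832, 914 and 914 in wild type. Its log2 difference was 0.32 ± 0.18 (limma adjusted p = 0.524), and without pop2-1 replicate 2, the array with the high actin ratio, it was 0.09. AT3G54250, on the same list, had 513, 486 and 494 in pop2-1 and 418, 536 and 409 in wild type (log2 0.14 ± 0.14, limma adjusted p = 0.714). The groups of both genes overlapped.

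The cytochrome P450 gene CYP71B31, whose product oxidises the floral monoterpenol linalool, was the 1 of 6 listed P450 genes with an annotated probe set. Its signal was 4353, 2829 and 3738 in pop2-1, against 4571, 3953 and 4383 in wild type. The log2 difference was -0.26 ± 0.15 (limma adjusted p = 0.525). Its lowest signal was on the array of pop2-1 replicate 2, and without that array the difference was -0.09.

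MYC3 came nearest to the threshold among the regulators. MYC3 and MYC4 are helix-loop-helix factors that act with MYC2 in jasmonate responses. The MYC3 signal was 842, 867 and 814 in pop2-1, against 543, 562 and 544 in wild type. The groups did not overlap and varied little, averaging 841 ± 26.3 in the mutant and 549.7 ± 10.4 in the wild type (SD over 3 arrays each). The log2 difference was 0.60 ± 0.11, or 1.51-fold, and just missed the threshold (limma adjusted p = 0.0558). By replicate number it was 0.62, 0.61 and 0.57. With the replicate number as a block, MYC3 passed (limma adjusted p = 0.0360), in a fit in which 1.9% of all tested probe sets changed. It also passed without pop2-1 replicate 1 (0.0288), where 3.86% of all changed, within a range of adjusted p of 0.0288 to 0.326 over 14 alternatives. The list that holds MYC3 was chosen with earlier results of these data known, so its adjusted p values are given as a description.

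MYC4 had signals of 182, 264 and 328 in pop2-1 and 245, 271 and 255 in wild type. The pop2-1 arrays lay on both sides of the wild-type range, and the log2 difference was -0.03 ± 0.20 (limma adjusted p = 0.967). CHAT, the acetyltransferase that makes the green leaf volatile (Z)-3-hexenyl acetate, was too dim to test. Its signal was 117, 144 and 140.2 in pop2-1, against 81.6, 75.3 and 65.7 in wild type, so the groups did not overlap. With no filter its log2 difference was 0.73 ± 0.21 and did not pass (limma adjusted p = 0.283).

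In all, groups did not overlap in 3 of the 9 tested genes of the lists (JMT, AT3G14520 and MYC3), against 17.9% of all tested probe sets. In 4 of the 31 genes too dim to test they did not overlap, against 12.5% of all such probe sets.

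Markers of floral tissues were set beside BSMT1 and AT3G25810, and their part in the results was not tested. SWEET9, the sugar exporter of nectaries and the 1 of 6 nectary markers with an annotated probe set, had signals between 6814 and 7294 in pop2-1, against 7027 to 7367 in wild type. The 5 of 7 pollen markers with an annotated probe set summed to 1619, 2271 and 2416 in pop2-1 replicates 1, 2 and 3. In wild-type replicates 1, 2 and 3 they summed to 1454, 1701 and 1526. As for AT3G25810 and AT5G44630, pop2-1 replicate 1 lay within the wild-type range and the other pop2-1 arrays lay above it. All 4 of the tested pollen markers were higher in pop2-1, as were 55.4% of all tested probe sets. Of the 4, 0 passed in limma, against 0.462% of all, and 1 had an unadjusted p under 0.05, against 11.9% of all. The sperm cell histone gene MGH3 had signals of 170.5, 309 and 246 in pop2-1 and 151, 195 and 133 in wild type.

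The 3 of 7 markers of pistil and ovule summed to between 1091 and 1335 in pop2-1, against 1056 to 1441 in wild type. In limma 0 of these 3 passed, against 0.462% of all tested probe sets. The 3 of 5 markers of young seed summed to between 61.2 and 92.1 in pop2-1, against 265 to 530.1 in wild type. BAN, the anthocyanidin reductase of the seed coat, was the 1 of these bright enough to test. It fell by 2.45 on the log2 scale (limma adjusted p = 0.0111), where 0.315% of all tested probe sets fell. The marker lists were chosen with earlier results of these data known, so this adjusted p is given as a description. The difference in the sum was that of BAN, since the groups overlapped for AGL62 and IKU2, the other markers of this list, which were too dim to test. The 2 of 5 markers of petal and sepal summed to between 120.2 and 153 in pop2-1, against 99.0 to 135 in wild type. They went different ways. JAG lay at 89.5 to 119.6 in the mutant and 56.2 to 68.7 in wild-type flowers, without overlap. The groups did not overlap in 12.5% of all probe sets too dim to test. RBE lay at 30.7 to 50.4 in the mutant and 37.9 to 66.5 in wild-type flowers. The 2 of 5 markers of the tapetum summed to between 28.2 and 40.3 in pop2-1, against 8.67 to 72.6 in wild type. Petal, sepal and tapetum markers were all too dim to test, and no marker was at exactly 0, since the lowest signal of any probe set was 0.066.

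The genes whose profile over the 6 arrays was most like that of each member were found among the 7314 other tested probe sets with 1 named gene. Likeness was the root mean square difference between log2 values after each profile was centred on its own mean. All profiles share the same 6 arrays and, for BSMT1, a large difference between groups, so likeness to it largely restates that difference and gets no test. The 5 nearest to BSMT1 were the sugar transporter gene AT5G18840 (0.10 log2 units), OCT1, an organic cation and carnitine transporter (0.21), the glutaredoxin gene AT2G30540 (0.29), AT2G45180 (0.35) and AT1G27030 (0.39). The signal of AT5G18840 was 1620.1, 1724 and 1619 in pop2-1 and 465, 483 and 402 in wild type. Like BSMT1 it was highest in replicate 2 and lowest in replicate 3 among the wild-type arrays. OCT1 shared this order, with 734, 850.5 and 665 in wild-type replicates 1, 2 and 3. Among the pop2-1 arrays AT5G18840 was highest in replicate 2, whereas BSMT1 was highest in replicate 3.

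The 5 nearest to AT3G25810 were AT5G24240 (0.03 log2 units), TUB1, a β-tubulin (0.05), AT4G12530 (0.07), AT2G20710 (0.07) and AT1G75640 (0.07). TUB1 had signals of 409.8, 661 and 683 in pop2-1 and 426, 429 and 474 in wild type. The pop2-1 array of replicate 1 was below the wild-type arrays and the other pop2-1 arrays were above them. Of the tested genes on the scent lists AT5G44630 was the most like AT3G25810 (0.15, rank 100), and MYC3 the most like BSMT1 (0.67, rank 76). The members differed from each other by 0.80, which put AT3G25810 at rank 564 from BSMT1 and BSMT1 at rank 7228 from AT3G25810.

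**Figure D5:**
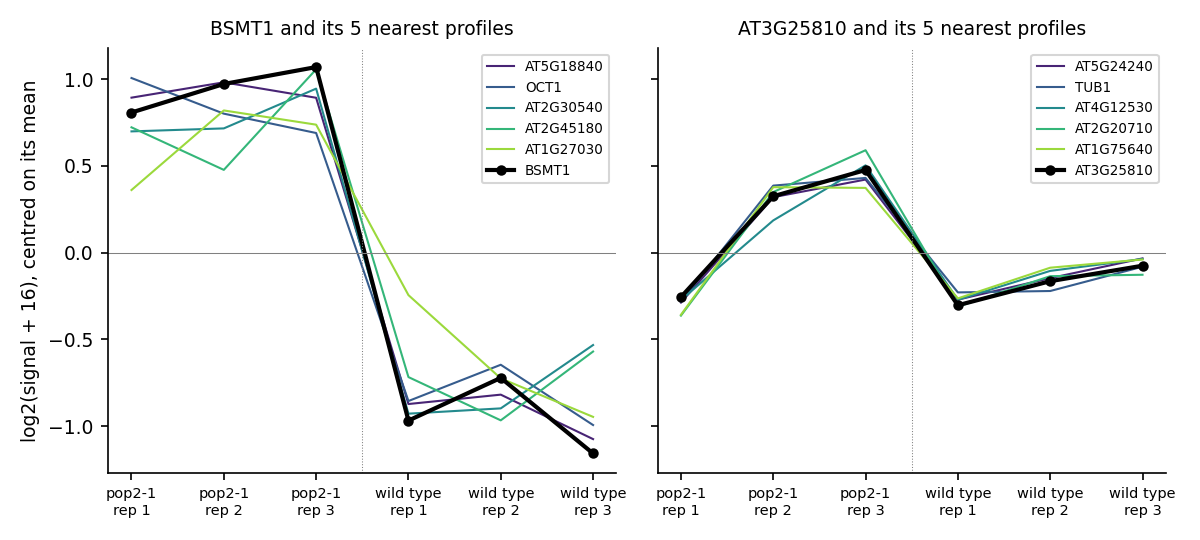
Log2(signal + 16) centred on its mean (vertical axis) over the 3 pop2-1 and 3 wild-type arrays for BSMT1 (left, black) and AT3G25810 (right, black), each with its 5 nearest profiles in colour. The BSMT1 set separates the genotypes on all arrays, while in the AT3G25810 set pop2-1 replicate 1 lies near the wild-type arrays.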

How the data were processed

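Affymetrix ATH1 arrays of 3 pop2-1 and 3 wild-type flower samples were used, grouped by their titles, since several free-text fields describe wild-type samples as mutant. The deposited values are MAS5 signals, a linear intensity per probe set, and MAS5 is the software named in the submitters' processing notes. Its version and scaling target are not given in the sources used here, and detection calls were not used. With 3 arrays per group, the array number limits precision.

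Names came from the platform annotation, updated through Entrez numbers to a RefSeq table of TAIR10.1: 13513 of 22810 probe sets had 1 gene (13436 of them in the table), 503 several and 8794 none. Coordinates are not given, since the signals name no build. Probe sets with a mean over 6 arrays above the 40th percentile were tested (13647 of 22746, without 64 controls) with limma 3.58.1 in R 4.3.3 on log2(signal + 16), with an intensity trend and Benjamini-Hochberg adjustment. The script was run on simulated data as a check of the code alone. The simulated arrays were independent with the same spread in both groups, unlike the real arrays.

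Members and gene lists were chosen with earlier results of these data known. The lists were fixed by locus number from general knowledge, and the reference table describes few of these loci. Named are BSMT1 and AT3G25810, every tested gene of a scent list (or the 4 with the smallest p where over 6 were tested), SWEET9, MGH3 and BAN among the markers, the 5 nearest profiles of each member, and CHAT, AT2G25510, dim list genes and gene-order neighbours, which were picked with their values in view.

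After subtraction of group means, arrays with the numbers 1, 2 and 3 had correlations of 0.208, 0.418 and 0.172 with their namesakes in the other group. Differences were therefore also given by replicate number, though no label says what a number shares. The main limma fit did not use this pairing, and the replicate block was an alternative. The alternatives were pseudocounts of 1 and 64, quantile normalization, equal medians, no filter, the 60th percentile, the replicate block, no trend, and leaving out each array.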

Additional observations from a re-analysis of the deposited data

How the results depend on the processing

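The log2 difference of AT3G25810 and the excess of BSMT1 over it kept their sign and moved by less than 1 SD between replicates under all 14 alternatives, ranging from 0.22 to 0.58 and from 1.29 to 1.64. That of BSMT1 did so under 13 and was 1.65 with a pseudocount of 64, which by its construction damps dim signals. The falls among all probe sets numbered 27 with no filter and 25 with a filter at the 60th percentile, against 43, from another set of probe sets tested. The replicate block gave 109 rises and 150 falls, against 20 and 43, with all 63 among them. When 1 array was left out, there were 3 to 199 rises and 2 to 328 falls. The calls numbered 527 without pop2-1 replicate 1 and 5 without pop2-1 replicate 3. They numbered 15, 5 and 8 when wild-type replicates 1, 2 and 3 were dropped in turn. Of the listed scent genes 1 rose with the replicate block and 1 with a filter at the 60th percentile (MYC3 in both, adjusted p = 0.0360 and 0.0498), and 0 to 2 rose when 1 array was left out. The 2 were MYC3 and AT5G44630, without pop2-1 replicate 1. The block changed no other call among these genes, and 0 fell under any alternative. Leaving out 1 array turned the sign of 2 small differences that passed under no setting: MYC4 ranged from -0.21 to 0.19 (above 0 when pop2-1 replicate 1 or wild-type replicate 2 was dropped), and AIM1 from -0.11 to 0.057 (above 0 when pop2-1 replicate 2 or wild-type replicate 1 was dropped). Except where the construction gives it, the cause was not tested. Signal over background limits the dim genes of both families, whose levels have no detection call.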
